A study of Papio anubis with 28 samples.

Results

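The 8 genes described here encode T-box and other regional transcription factors, known for setting up parts of the embryo: 6 of the T-box family (TBX2, TBX3, TBX4, TBX5, TBX18 and TBX20) and the homeobox genes EVX1 and DBX2. They were matched by gene symbol, and each symbol had 1 row among the 27533 genes of the count table. They were chosen by their levels in earlier results of these libraries, in which TBX4 and TBX5 had no read in grafted ileum, so contrasts that hold the ileum libraries are given as a description. Where genes called in such a contrast are counted, nothing is read from the count. All 8 passed the filter on low counts that left 17177 genes to test.

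The libraries are RNA sequencing of wild-type olive baboon urinary bladders, 28 in all from 14 animals, and each animal gave 1 library of its graft and 1 of its native bladder. In the Entero arm (5 animals) the bladder was enlarged with a piece of ileum, and its libraries are called Entero Ileum and Entero Native. In the SIS arm (5 animals) and the PRS arm (4 animals) the graft was a scaffold that carried cells of primary bone marrow, mesenchymal stromal cells (MSC) with CD34+ haematopoietic stem and progenitor cells (HSPC), and the libraries are SIS Regen and SIS Native, and PRS Regen and PRS Native. What PRS stands for, the age of the animals and the time in place are not stated in the labels, and a library is RNA of a whole tissue piece, with several cell types in it. The native bladders are those of operated animals, and no bladder of an animal without a graft is among the libraries.

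Total counts ran between 20975648 and 35669026 per library. Levels are CPM, each gene's share of a library's reads on a common scale, on library sizes scaled by the trimmed mean of M values, and groups are summarised as mean ± SD over animals. As a check of the labelled tissue, the 4 uroplakins of the urothelial list (UPK1A, UPK1B, UPK2 and UPK3A) averaged 1.204 to 4.06 CPM in Entero Ileum, 308 to 1021 CPM in SIS Regen, 49.4 to 808 CPM in PRS Regen and 223 to 1122 CPM in the native groups. The sum of all 7 urothelial genes was no such divider, at 1366 CPM in Entero Ileum and 1350 CPM in PRS Regen on average, since KRT20, which intestinal epithelium also expresses, made up 1353 CPM of the ileum sum. The summed level of 8 intestinal epithelium genes was 976 to 8848 CPM in Entero Ileum and at most 24.0 CPM in any other library. The pieces differed widely in makeup within every group: the sum of 6 smooth muscle genes ran between 2717 and 65293 CPM in PRS Regen, 6081 and 35833 CPM in SIS Regen, 2338 and 76019 CPM in Entero Ileum, and 2075 and 68926 CPM over the 14 native bladders. The graft of PRS animal 3 stood apart by its mesothelial genes, with a summed level of 3973 CPM against 26.4 to 524 CPM in the other 27 libraries.

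As background, T-box factors bind DNA through the domain that gives the family its name and act in the early division of the body into regions. TBX4 and TBX5 are expressed in hindlimb and forelimb buds and in lung mesenchyme, TBX20 acts in the heart, and TBX18 marks the mesenchyme that forms ureteric smooth muscle in the mouse. TBX2 and TBX3 are closely related repressors of transcription. EVX1 lies beside HOXA13 at the end of the HOXA cluster and, like DBX2, is best known from the division of the embryonic spinal cord of the mouse into domains. In the bladder, smooth muscle forms from mesenchyme under signals of the overlying epithelium, among them SHH.

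Per kilobase of gene length, the level in native bladder lay in 3 tiers. In Entero Native, TBX3 and TBX2 averaged 51.2 ± 17.96 and 42.0 ± 16.6 CPM per kb (SD, n = 5). TBX5, EVX1 and TBX4 lay lower, at 9.21 ± 7.55, 5.70 ± 3.48 and 4.24 ± 3.57 CPM per kb. TBX20, TBX18 and DBX2 were the rarest, at 1.26 ± 0.90, 0.897 ± 0.832 and 0.486 ± 0.291 CPM per kb. Over the 6 groups, the mean of TBX2, TBX4 and TBX5 was highest in SIS Native, that of TBX3 and EVX1 in SIS Regen, that of TBX18 and TBX20 in PRS Regen, and that of DBX2 in SIS Native. The PRS Regen means of TBX18 and TBX20, 3.64 and 5.48 CPM, rest on the graft of animal 2, without which they were 1.14 and 0.726 CPM. The native groups, each also without its highest library, averaged 1.13 to 2.83 CPM for TBX18 and 1.58 to 2.66 CPM for TBX20. Neighbouring groups in the order of means had overlapping ranges for all 8 genes, with 2 exceptions: TBX4 between SIS Regen and Entero Ileum, and EVX1 between Entero Native and Entero Ileum, where the ileum was at 0.

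**Figure D1:**
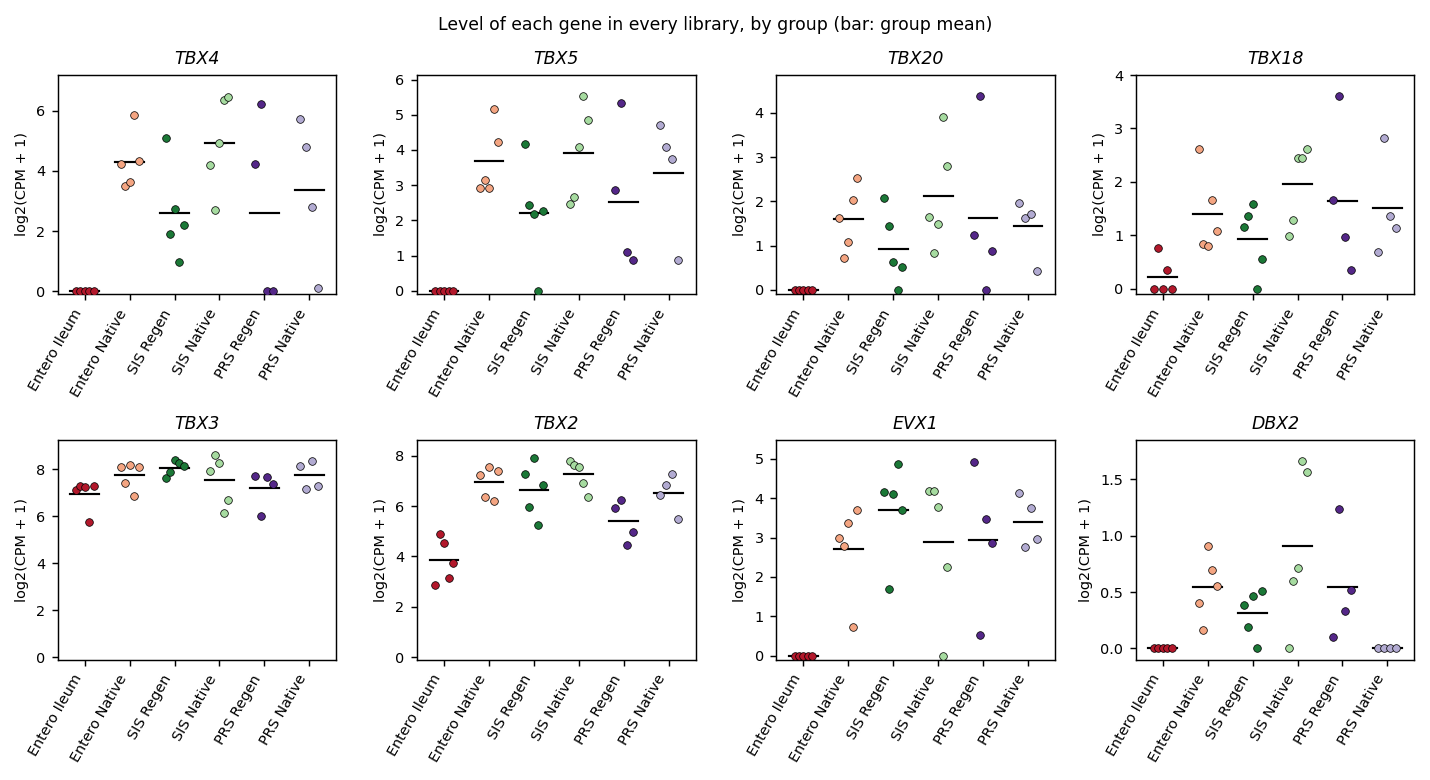
Level of each of the 8 genes in every library, as log2(CPM + 1), with a bar at the mean of that scale for each of the 6 groups. TBX4, TBX5, TBX20, EVX1 and DBX2 lie at 0 in all 5 Entero Ileum libraries, DBX2 lies at 0 also in all 4 PRS Native libraries, and the Regen and Native points of the SIS and PRS arms overlap for the other genes.

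Grafted ileum lacked most of the 8 transcripts. TBX4 had 0 reads in each of the 5 Entero Ileum libraries, against 17.6, 10.4, 11.2, 57.1 and 18.9 CPM in Entero Native. TBX5 also had 0 reads in all 5 ileum libraries, against 6.61, 7.93, 6.58, 34.5 and 17.8 CPM in Entero Native. For both genes every native bladder of the arm lay above every ileum graft, and animal 4 was the highest. These are bulk libraries, so fewer cells of a type and less RNA per cell cannot be told apart. TBX20 had no read in ileum, against 2.06, 0.639, 1.11, 3.07 and 4.79 CPM in Entero Native, which makes it at least 79.0-fold lower in ileum when 3 counts over the whole group, 0.0296 CPM on the scaled library sizes, stand in for 0 (the floor covers counting error only). The sum of smooth muscle genes in the ileum libraries reached 76019 CPM with TBX4, TBX5 and TBX20 at 0, which is above the 62278 CPM of the most muscular Entero Native library.

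EVX1 had 0 reads in the 5 Entero Ileum libraries, against 7.01, 5.87, 9.32, 0.653 and 12.1 CPM in Entero Native, a level at least 236-fold lower in ileum on the same floor. DBX2 had 0 reads in ileum, against 0.325, 0.116, 0.872, 0.615 and 0.464 CPM in Entero Native, from 63 reads in all, so its bound is at least 16.2-fold. TBX18 had 20 reads in ileum, in 2 of the 5 libraries, and averaged 0.197 ± 0.308 CPM in Entero Ileum and 1.99 ± 1.85 CPM in Entero Native (SD, n = 5 each). The groups did not overlap for EVX1 and DBX2, nor for TBX18, whose highest ileum library had 0.702 CPM against 0.753 CPM in the lowest native one.

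The repressors TBX2 and TBX3 remained detectable in all 5 ileum grafts. TBX2 had 6.34, 29.0, 22.1, 7.94 and 12.5 CPM in Entero Ileum, against 149, 82.3, 189, 71.7 and 166 CPM in Entero Native. The highest ileum library lay below the lowest native bladder, and the fitted difference was -3.08 on the log2 scale. TBX3 had 138, 156, 152, 52.9 and 155 CPM in Entero Ileum, against 275, 169, 290, 114 and 276 CPM in Entero Native. It was lower in the graft of all 5 animals, while the groups overlapped, with a fitted difference of -0.78 on the log2 scale. TBX3 was thus the member whose level in ileum came nearest to that in native bladder. Of the 8 genes, 6 passed the edgeR threshold (adjusted p under 0.05 over all genes) as lower (TBX2, TBX4, TBX5, TBX20, EVX1 and DBX2), against 7.33% of all genes tested that were called lower, and since this contrast entered the choice of the genes nothing is read from that count. With the animal as a block DBX2 did not pass (adjusted p = 0.112 in edgeR), and nothing is read from this either.

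Other genes of the same kinds were taken from 3 lists, whose counts stand beside 7.33% of all genes tested that were called lower in ileum and 7.72% called higher. Of 6 tested members among 11 other T-box genes, 1 was called lower in ileum, TBX1, a gene of the pharyngeal region, with 3.95 ± 2.65 CPM in Entero Ileum and 38.2 ± 32.5 CPM in Entero Native, and 1 was called higher, TBX10, with 9.82 ± 14.2 CPM in Entero Ileum and 1.10 ± 0.603 CPM in Entero Native (SD, n = 5 each). Of 28 tested members among 35 regional transcription factors of mesenchyme, 9 were called lower in ileum, and 3 higher, a count near the share over all genes, with a median log2 difference of -0.66 beside -0.03 over all genes tested. NKX2-3 and GATA4, known from gut mesenchyme and gut epithelium, were among the higher ones, at 26.9 and 7.60 CPM in Entero Ileum against 0.103 and 0.0174 CPM in Entero Native. The posterior HOX genes HOXA13 and HOXD13 were among the lower ones, with 14 and 0 reads in the 5 ileum libraries, against 12352 and 4051 reads in Entero Native. HOXA13, the neighbour of EVX1 in RefSeq's annotation of the baboon assembly Panubis1.0, had 14 reads in ileum where EVX1 had 0. Of 21 tested members among 25 signals and targets tied to T-box factors, 3 were called lower (WNT7B, SHH and RARB) and 2 higher (CDKN2B and GREM1), the second count near its share over all genes. SHH, the epithelial signal, averaged 0.0602 CPM in Entero Ileum and 30.1 CPM in Entero Native.

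In the SIS arm the regenerated tissue expressed all 8 genes. TBX4 had 33.1, 2.76, 5.71, 0.976 and 3.57 CPM in SIS Regen, against 17.1, 5.46, 29.0, 80.2 and 87.3 CPM in SIS Native. It was lower in the graft of 4 of 5 animals, the groups overlapped, and the graft of animal 1 alone exceeded its native bladder. TBX5 had 17.1, 4.44, 3.51, 0 and 3.798 CPM in SIS Regen, against 4.47, 5.30, 15.9, 44.8 and 27.9 CPM in SIS Native. The order was alike: lower in 4 of 5 animals, higher in animal 1. TBX20 had 3.22, 1.73, 0.543, 0 and 0.426 CPM in SIS Regen, against 2.13, 0.784, 1.80, 13.9 and 5.93 CPM in SIS Native, and TBX18 had 1.22, 1.59, 2.01, 0 and 0.465 CPM in SIS Regen, against 0.997, 1.45, 4.43, 4.46 and 5.16 CPM in SIS Native. Both were lower in 3 of 5 animals. TBX5, TBX20, TBX18 and DBX2 had no read in the graft of animal 4, where TBX4 had 35 reads.

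None of these differences passed edgeR's quasi-likelihood test at an adjusted p of 0.05. The log2 fold changes of SIS Regen over SIS Native were -2.25 for TBX4 (95% interval -5.16 to 0.66), -1.77 for TBX5 (-4.07 to 0.53), -2.05 for TBX20 (-4.63 to 0.53), -1.64 for TBX18 (-3.98 to 0.71) and -2.05 for DBX2 (-4.54 to 0.43). The adjusted p was 1 for all 8 genes in edgeR. Every interval holds 0, and that of TBX4 runs between 0.0281 and 1.58 times the native level, so these libraries do not settle whether the levels differ. Leaving out the graft of animal 1 moved TBX4 to -3.75 and TBX5 to -2.75. The sum of smooth muscle genes lay between 6081 and 35833 CPM in SIS Regen and between 8575 and 68926 CPM in SIS Native, and its part in these values was not tested by a model. As a description, TBX4 per 1000 CPM of smooth muscle genes had a median of 0.432 in SIS Regen (range 0.0770 to 1.46) and 1.16 in SIS Native (0.636 to 1.70), so that the ranges overlapped.

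TBX2, TBX3 and EVX1 had smaller differences in the SIS arm. TBX2 had 156, 60.7, 237, 36.9 and 114 CPM in SIS Regen, against 222, 198, 187, 121 and 82.1 CPM in SIS Native, and the log2 fold change was -0.42 (-1.41 to 0.57). TBX3 had 194, 236, 338, 304 and 278 CPM in SIS Regen, against 244, 382, 303, 69.8 and 104 CPM in SIS Native, with a log2 fold change of 0.29 (-0.55 to 1.13). The interval of TBX3 runs between 0.685 and 2.19 times the native level, and on the log2 scale it is the narrowest of the 8 in this arm. EVX1 had 16.8, 2.24, 16.4, 27.98 and 11.9 CPM in SIS Regen, against 17.3, 17.1, 12.7, 0 and 3.75 CPM in SIS Native, with a log2 fold change of 0.57 (-1.44 to 2.57). It was higher in the graft of 3 of 5 animals. The count of members called was 0 of 8 in edgeR, beside 0% of the 17177 genes. It was 0 of 8 at an unadjusted p under 0.05, beside 4.86% of all genes, and 0 of 8 in DESeq2, beside 0.343%.

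In the PRS arm the graft of animal 2 stood high for TBX4, TBX5, TBX18 and TBX20. TBX4 had 17.7, 72.8, 0 and 0 CPM in PRS Regen, against 51.9, 26.7, 5.98 and 0.0779 CPM in PRS Native. The grafts of animals 3 and 4 had no read, and the native bladder of animal 4 had 2 reads. TBX5 had 6.20, 39.0, 1.13 and 0.828 CPM in PRS Regen, against 25.2, 15.8, 12.4 and 0.818 CPM in PRS Native, TBX20 had 1.35, 19.7, 0 and 0.828 CPM in PRS Regen, against 2.91, 2.08, 2.31 and 0.351 CPM in PRS Native, and TBX18 had 2.18, 11.1, 0.972 and 0.276 CPM in PRS Regen, against 0.621, 6.07, 1.57 and 1.21 CPM in PRS Native. The graft of animal 2 was the highest of the arm for all 4 genes, and it also held the most smooth muscle transcript, with 65293 CPM over the muscle genes against 2717 to 17621 CPM in the other 3 grafts. The log2 fold changes of PRS Regen over PRS Native were 0.10 for TBX4 (-3.01 to 3.20), -0.20 for TBX5 (-2.70 to 2.30), 1.51 for TBX20 (-1.32 to 4.35) and 0.62 for TBX18 (-1.94 to 3.18). The signs rested on single libraries: leaving out each of the 8 libraries of the arm in turn reversed TBX4 in 3 cases, TBX5 in 4, and TBX20 and TBX18 in 1 each. Without the graft of animal 2 the values were -1.85, -2.31, -1.39 and -1.04, and with the animal as a block TBX4 stood at -1.89, TBX20 at -0.20 and EVX1 at -0.62.

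TBX2 had 59.6, 74.4, 21.2 and 30.8 CPM in PRS Regen, against 86.4, 113, 155 and 43.5 CPM in PRS Native. It was lower in the graft of all 4 animals, with overlapping groups and a log2 fold change of -1.10 (-2.22 to 0.02), which missed the threshold (unadjusted p = 0.0534, adjusted p = 1 in edgeR). TBX3 had 211, 64.0, 205 and 164 CPM in PRS Regen, against 281, 143, 325 and 154 CPM in PRS Native, with a log2 fold change of -0.49 (-1.43 to 0.45). EVX1 had 29.4, 0.439, 10.2 and 6.27 CPM in PRS Regen, against 16.4, 5.75, 12.4 and 6.78 CPM in PRS Native, and its log2 fold change was 0.16 (-2.07 to 2.40). EVX1 was lowest in the graft of animal 2, the muscle-rich one, and highest in the graft of animal 1.

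DBX2, the rarest member, had the smallest p of the 8 between PRS Regen and PRS Native. It had 2, 34, 8 and 11 reads in the 4 PRS grafts (0.0693, 1.36, 0.259 and 0.434 CPM), against 0 reads in all 4 PRS Native libraries. That is a level at least 21.9-fold higher in PRS Regen, with 3 counts over the group in place of 0, from 55 reads in all, 34 of them in the graft of animal 2, without which the bound was 10.5-fold. The other native bladders had reads of DBX2 in 9 of 10 libraries, with 0, 0.512, 0.639, 2.17 and 1.96 CPM in SIS Native and 0.116 to 0.872 CPM in Entero Native. The edgeR test gave an unadjusted p of 0.000916 for PRS Regen against PRS Native, which did not pass over all genes (adjusted p = 1). DESeq2 called it, with an adjusted p of 0.0485. DBX2 was higher in the graft of 4 of 4 PRS animals and of 1 of 5 SIS animals. Members called in the PRS arm were 0 of 8 in edgeR, beside 0% of all genes. DBX2 was the 1 of 8 at an unadjusted p under 0.05, beside 3.62% of all genes, and the 1 of 8 in DESeq2, beside 0.143%.

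**Figure D2:**
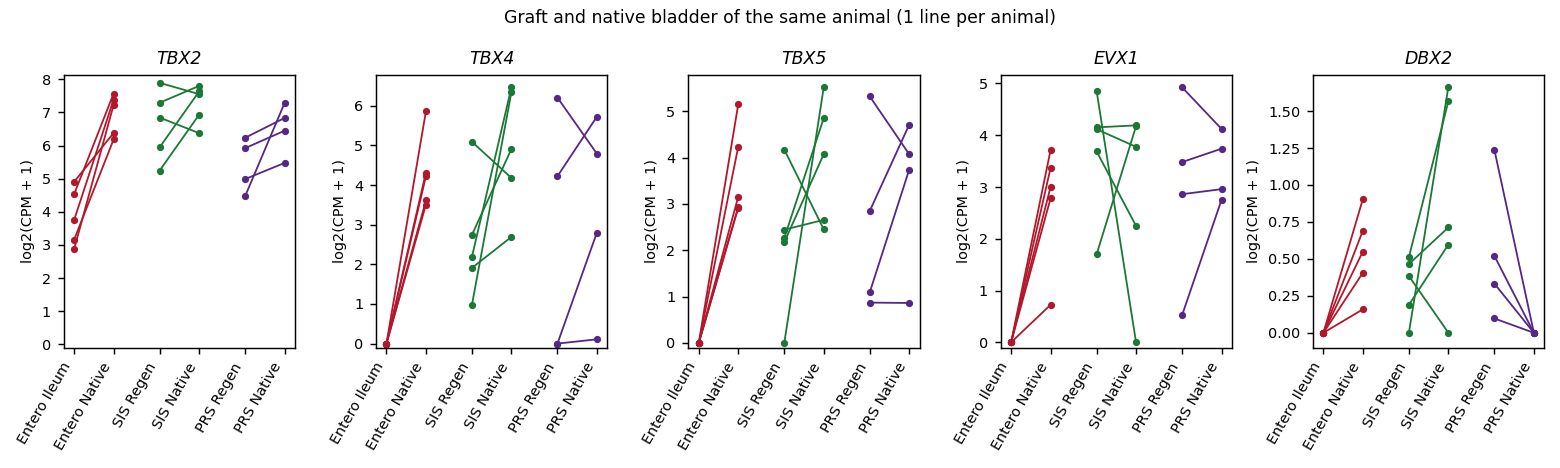
Level of TBX2, TBX4, TBX5, EVX1 and DBX2, as log2(CPM + 1), in the graft and in the native bladder of each animal, joined by 1 line per animal. All 5 Entero lines rise towards the native bladder, the SIS and PRS lines of TBX4, TBX5 and EVX1 run in both directions, TBX2 is lower in the graft of all 4 PRS animals, and DBX2 is above 0 in the PRS grafts alone in that arm.

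With the arms pooled, 9 animals could be compared. TBX2 was lower in the graft of 7 of 9 animals. Its log2 fold change was -0.76 (-1.50 to -0.02), with an adjusted p of 0.979 in edgeR. DBX2 gave 2.41 (0.54 to 4.28), with an adjusted p of 0.742 in edgeR, an estimate that includes PRS Native at 0. That value joins opposite signs, -2.05 in the SIS arm and 6.87 in the PRS arm. DBX2 was higher in the graft of 5 of 9 animals and lower in 4. The log2 fold changes of the other 6 genes ran between -1.08 for TBX4 and 0.37 for EVX1, with intervals that hold 0. Members called were 0 of 8 in edgeR and 0 of 8 in DESeq2, beside 0% and 0.288% of all genes. At an unadjusted p under 0.05 there were 2 of 8 (TBX2 and DBX2), beside 4.98% of all genes.

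Between the regenerated tissues of the PRS and SIS arms the ranges of all 8 genes overlapped. TBX2 averaged 46.5 ± 24.7 CPM in PRS Regen (n = 4) and 121 ± 79.7 CPM in SIS Regen (SD, n = 5), a log2 fold change of -1.38 (-2.46 to -0.30) with an unadjusted p of 0.0146 and an adjusted p of 1 in edgeR. The groups overlapped, since 2 of the PRS grafts exceeded the lowest SIS graft. TBX3 averaged 161 ± 67.8 CPM in PRS Regen and 270 ± 56.4 CPM in SIS Regen, with a log2 fold change of -0.75 (-1.65 to 0.15). TBX4, TBX5, TBX18 and TBX20 gave positive values between 1.03 and 2.21, which stood between -1.07 and 0.13 without the graft of PRS animal 2. Members called were 0 of 8 in edgeR and in DESeq2, beside 0% and 0.0809% of all genes, and 1 of 8 passed unadjusted (TBX2), beside 4.44%. The sum of the 7 urothelial genes was 330 to 2361 CPM in PRS Regen and 199 to 4893 CPM in SIS Regen, and its part in the TBX2 value was not tested.

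**Figure D3:**
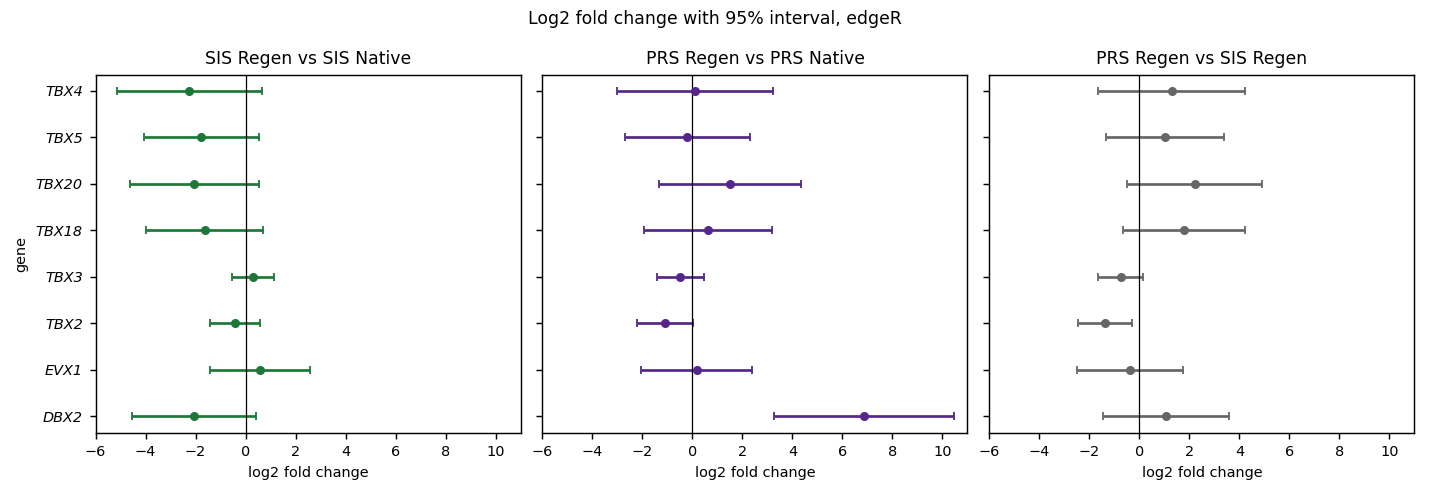
Log2 fold change of each gene with its 95% interval from edgeR, for SIS Regen over SIS Native, PRS Regen over PRS Native and PRS Regen over SIS Regen. Intervals that leave out 0 are those of DBX2 in the PRS arm and of TBX2 between the regenerated tissues, and neither passed after adjustment over all genes.

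Native bladders were compared between arms as well. Members called were 0 of 8 in edgeR in each of SIS Native against Entero Native, PRS Native against Entero Native and PRS Native against SIS Native, beside 0% of all genes each time. At an unadjusted p under 0.05 there were 0, 1 and 1 of 8, in both cases DBX2, beside 4.14%, 2.15% and 7.02% of all genes. DESeq2 called DBX2 in both comparisons that hold PRS Native, beside 0.164% of all genes against Entero Native and 0.572% against SIS Native. TBX2 averaged 162 ± 58.3 CPM in SIS Native (n = 5), 99.6 ± 46.9 CPM in PRS Native (n = 4) and 132 ± 52.1 CPM in Entero Native (SD, n = 5), with overlapping ranges. EVX1 averaged 10.2 ± 7.89 CPM in SIS Native, 10.3 ± 4.99 CPM in PRS Native and 6.99 ± 4.27 CPM in Entero Native.

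Set against the ileum grafts, the regenerated tissues held more transcript of most members, given again as a description since the ileum levels entered the choice. In SIS Regen 6 of 8 were called higher than in Entero Ileum, beside 10.9% of all genes called higher, and in PRS Regen 7 of 8, beside 7.21%. Fitted on the groups of the comparison alone, 5 of the 8 passed the filter in each, and 4 were called in SIS Regen (TBX2, TBX3, TBX4 and EVX1) and 2 in PRS Regen (TBX5 and EVX1). Over all genes these fits called 2326 and 1040 in either direction. TBX4, TBX5 and EVX1 had no read in ileum and could pass the filter through the regenerated libraries alone, which fixed the direction of their calls. TBX4 was at least 312-fold higher in SIS Regen than in Entero Ileum on the floor of 3 counts over the ileum group, and at least 109.96-fold without the graft of SIS animal 1. In PRS Regen it was at least 765-fold higher, and at least 199-fold without the graft of animal 2, and 2 of the 4 PRS grafts had no read of it. EVX1 had reads in all 9 regenerated libraries, and was at least 509-fold higher in SIS Regen and at least 391-fold higher in PRS Regen than in Entero Ileum. Without the graft of PRS animal 1 the bound in PRS Regen was 190.3-fold. The change of graft against native bladder differed from that of the Entero arm for 3 of 8 members in the SIS arm (TBX2, TBX5 and EVX1), beside 3.59% of all genes called in that direction, and for 5 of 8 in the PRS arm (TBX4, TBX5, TBX20, EVX1 and DBX2), beside 1.58%. With the animal as a block these counts were 2 (TBX2 and EVX1) and 0, beside 675 and 240 of the 17177 genes tested, called in either direction. Both comparisons share the Entero libraries.

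Across the 14 native bladders the members differed in the marker lists they went with. TBX4 had its highest r with smooth muscle: over the sum of 6 smooth muscle genes (ACTA2, ACTG2, CNN1, DES, MYOCD and SYNPO2) Pearson's r was 0.918 on the log2(CPM + 1) scale and Spearman's rho 0.899. Its permutation p was 1e-05 for r, the smallest that 100000 permutations can give, and 4e-05 for rho, with 0.00056 and 0.00224 after adjustment over 56 relations (8 genes by 7 marker lists). With the arm means taken out r was 0.947, and without the 2 libraries farthest from the median of the muscle sum it was 0.884. For TBX5 the values were r = 0.885 and rho = 0.807 (permutation p = 4e-05 and 0.0009, adjusted p = 0.00112 and 0.0155), 0.897 with the arm means taken out and 0.804 without the 2 farthest libraries. TBX20 had its highest r with the nerve and glia list, at 0.821 (adjusted p = 0.00952), 0.805 with the arm means taken out and 0.695 without the 2 farthest libraries, where it no longer passed. With smooth muscle TBX20 had r = 0.723 and rho = 0.749 (permutation p = 0.00264 and 0.00305, adjusted p = 0.0164 and 0.0285), and r = 0.579 without the 2 farthest libraries, where it no longer passed. On the same smooth muscle list TBX18 (r = 0.50) and DBX2 (r = 0.48) did not pass, and TBX2 stood at -0.02. DBX2 passed with nerve and glia (r = 0.708, permutation p = 0.00645, adjusted p = 0.0212). It did not pass there by rho (0.443) or without the 2 farthest libraries (r = 0.533).

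EVX1, TBX3 and TBX2 were positive with the urothelial genes. EVX1 had r = 0.829 with the sum of 7 urothelial genes and rho = 0.565 (permutation p = 0.0009 and 0.0386, adjusted p = 0.0101 and 0.135). Without the 2 farthest libraries r was 0.427 and did not pass, so the relation rests on the native bladders of Entero animal 4 and SIS animal 4, with 358 and 187 CPM of urothelial transcript and 0.653 and 0 CPM of EVX1. TBX3 had r = 0.767 and rho = 0.587 (permutation p = 0.00174 and 0.031, adjusted p = 0.0162 and 0.116), and r = 0.492 without the same 2 libraries, where it did not pass. TBX2 had r = 0.622 and rho = 0.723 (permutation p = 0.0169 and 0.00456, adjusted p = 0.0451 and 0.0341), and r = 0.818 without them. Of the 56 relations 21 passed, 15 positive and 6 negative, and since they share the same 14 libraries they are not independent. EVX1 and TBX3 passed with other lists too: they were positive with mesothelium (r = 0.691 and 0.743) and negative with endothelium (-0.691 and -0.748) and with nerve and glia (-0.736 and -0.707). Without the 2 libraries farthest from the median of each list, the mesothelium values were 0.297 and 0.393 and did not pass. The nerve and glia values were then -0.063 and -0.326 and did not pass either. With endothelium EVX1 then stood at -0.788 and passed, and TBX3 stood at -0.723 and did not. With the fibroblast list EVX1 and TBX3 stood at -0.34 and -0.32, which did not pass. TBX4 and TBX5 also passed with the fibroblast list (r = 0.769 and 0.712) and with nerve and glia (0.713 and 0.685). Without the 2 farthest libraries of each list they stood at 0.668 and 0.539 with fibroblast and 0.663 and 0.480 with nerve and glia, and none passed. TBX5 and TBX20 passed as negative with mesothelium (r = -0.694 and -0.737), and TBX20 as positive with fibroblast (0.632). Without the 2 farthest libraries these values were -0.551, -0.267 and 0.486, and none passed.

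**Figure D4:**
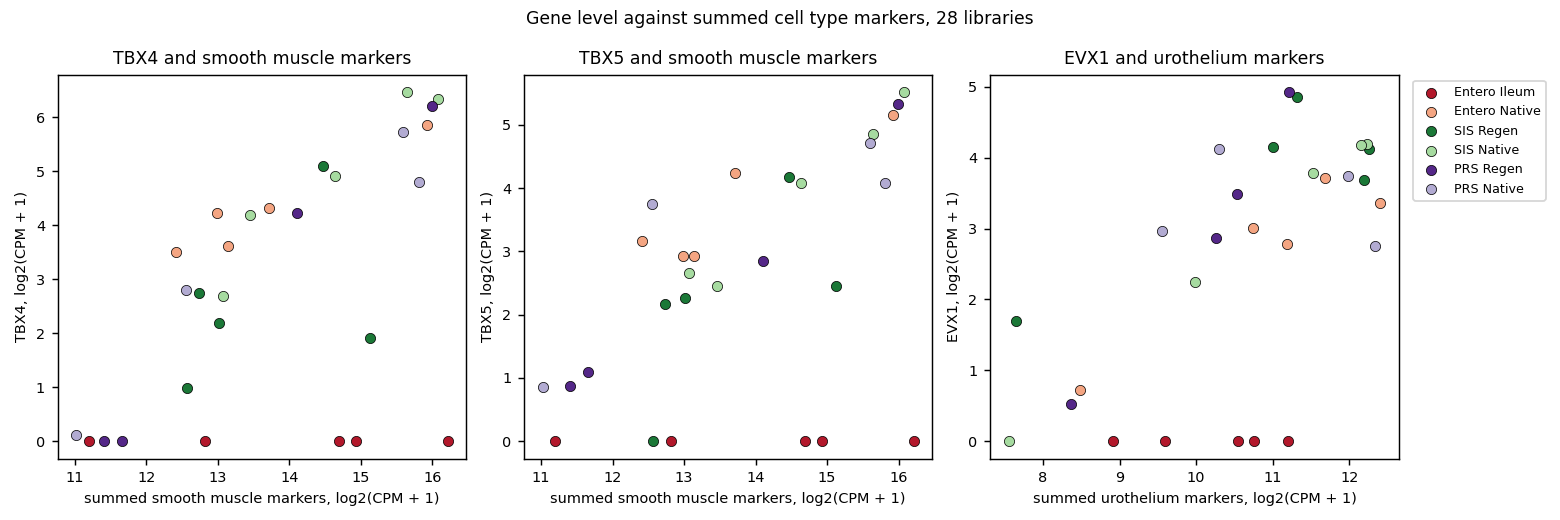
Level of TBX4 and TBX5 against the summed smooth muscle markers, and of EVX1 against the summed urothelium markers, all as log2(CPM + 1), 1 point per library coloured by group. The 5 Entero Ileum points lie at 0 on the vertical axis over the whole range of the muscle sum, 2338 to 76019 CPM, while native bladders rise with it. The urothelium sum of the ileum includes KRT20, which intestinal epithelium also expresses.

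The 9 regenerated libraries gave values of the same sign for these pairs, and none passed after adjustment over 56 relations. TBX4 and TBX5 had r = 0.838 and 0.843 with smooth muscle (exact permutation p = 0.00586 and 0.00425, adjusted p = 0.094 each), and rho of 0.812 and 0.900 (exact permutation p = 0.0113 and 0.00203, adjusted p = 0.0908 and 0.0631). EVX1 had r = 0.837 and rho = 0.717 with urothelium (exact permutation p = 0.00834 and 0.0369, adjusted p = 0.094 and 0.121). Without the 2 libraries farthest from the median of the urothelial sum, EVX1 stood at r = 0.383. Without the 2 farthest from that of the muscle sum, the grafts of PRS animal 2 and SIS animal 2, TBX4 and TBX5 stood at 0.972 and 0.827. That left out the graft that lay off the TBX4 line, so nothing is read from the higher r of TBX4. The graft of SIS animal 2 lay off the TBX4 line, with 35833 CPM of smooth muscle transcript, the most of its group, and 2.76 CPM of TBX4, a ratio of 0.0770 per 1000 that lies below the 0.636 of the lowest SIS Native library. It was not alone below that value. The grafts of SIS animals 4 and 5 had 0.160 and 0.432, and those of PRS animals 3 and 4 had 0. The native bladders of PRS animals 2 and 4 had 0.463 and 0.0375.

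**Figure D5:**
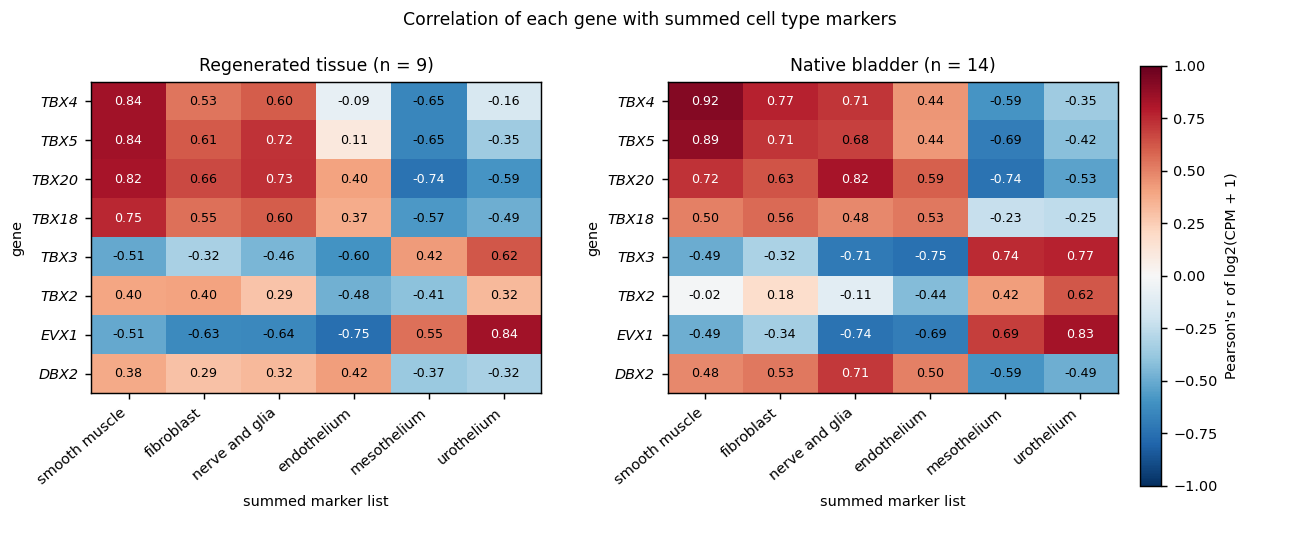
Pearson's r between each gene and the sum of each marker list on the log2(CPM + 1) scale, in 9 regenerated libraries (left) and 14 native bladders (right). TBX4, TBX5 and TBX20 are positive with smooth muscle in both panels (0.84, 0.84 and 0.82 in regenerated tissue, 0.92, 0.89 and 0.72 in native bladder), and TBX3 and EVX1 are positive with urothelium in both. Without the 2 libraries farthest from the median urothelial sum, EVX1 stood at 0.38 in regenerated tissue and 0.43 in native bladder, and TBX3 at 0.86 and 0.49. After adjustment over 56 relations in each panel, 0 pass in regenerated tissue and 21 in native bladder, where the 56 relations include the intestinal list that is not drawn.

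The members also sorted among themselves, as a description over libraries that share depth and makeup. In regenerated tissue (n = 9) and native bladder (n = 14), r was 0.929 and 0.902 between TBX4 and TBX5, 0.898 and 0.812 between TBX5 and TBX20, 0.824 and 0.776 between TBX4 and TBX20, and 0.741 and 0.894 between TBX3 and EVX1. TBX3 and TBX20 ran opposite, at -0.864 in regenerated tissue and -0.538 in native bladder. TBX2 and TBX4, whose genes lie close together on 1 chromosome in RefSeq's annotation of Panubis1.0 with LINC02875 between them, were at 0.600 in regenerated tissue and 0.106 in native bladder. TBX3 and TBX5, which share a chromosome there, were at -0.655 and -0.424.

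Of all genes with a symbol, those most like each member over the 14 native bladders were named by the highest Pearson's r, with no p. For TBX4 they were CNTN1, GNAI1 and MYLK (r = 0.982, 0.981 and 0.971), the last of which encodes myosin light chain kinase, and the r over the 9 regenerated libraries was 0.894, 0.967 and 0.913. For TBX5 they were ARHGEF26, CASQ2 and SRL (0.968, 0.944 and 0.944), and CASQ2 encodes calsequestrin, a calcium store of muscle. For TBX20 they were RIMS1, TSR1 and CNTLN (0.908, 0.897 and 0.893). For TBX3 they were WNT10A, FBF1 and CD46 (0.945, 0.941 and 0.933), and WNT10A encodes a secreted Wnt ligand. Over the 9 regenerated libraries r was 0.881, 0.933 and 0.962 for the genes of TBX5. It was 0.902, 0.409 and 0.924 for those of TBX20, and 0.679, 0.531 and 0.870 for those of TBX3.

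For EVX1 the most alike were NTF4, TMEM30B and SH3YL1 (0.947, 0.937 and 0.936), of which NTF4 encodes a neurotrophin. For TBX2 they were GGACT, HEY1 and RASD2 (0.909, 0.891 and 0.886), and HEY1 is a target of Notch signals. In regenerated tissue HEY1 had r = 0.810 with TBX2, and GGACT 0.154. For TBX18 they were GPR20, PRKACA and U6 (0.913, 0.823 and 0.821), where the symbol U6 belongs to a family of near-identical RNA genes and its reads are uncertain. For DBX2 they were ZNF449, MEGF10 and AMPH (0.902, 0.896 and 0.895), and with at most 53 reads per native library these values rest on few counts. Over the regenerated libraries r was 0.509, 0.817 and 0.018 for the genes of TBX18, and 0.906, 0.081 and 0.753 for those of DBX2. The genes of EVX1 stood at 0.885, 0.864 and 0.866, and RASD2 at 0.685 with TBX2. The likeness thus did not hold for every gene named.

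The lists around the members gave 0 calls in edgeR between regenerated and native tissue in the SIS arm, the PRS arm and both pooled. At an unadjusted p under 0.05, 4.86% of all genes passed in the SIS arm and 3.62% in the PRS arm. Of 28 regional transcription factors tested, 1 passed unadjusted in the SIS arm (HOXD13, with 10.96 ± 11.9 CPM in SIS Regen and 45.7 ± 35.5 CPM in SIS Native) and 2 in the PRS arm (NKX2-3 and HAND1). NKX2-3, which was high in ileum, averaged 0.497 ± 0.640 CPM in PRS Regen and 0.0195 ± 0.0390 CPM in PRS Native (SD, n = 4 each), with 54 and 2 reads. Its adjusted p was 1 in edgeR. Of 21 signals and targets tested, 4 passed unadjusted in the SIS arm and 0 in the PRS arm. Among the 4 were CDKN2B, a cell cycle inhibitor, at 20.1 CPM in SIS Regen and 8.23 CPM in SIS Native, and GREM1, an antagonist of BMP signals, at 46.8 CPM in SIS Regen and 9.56 CPM in SIS Native (adjusted p = 0.928 and 0.869 in edgeR). Of 6 other T-box genes tested, 0 passed unadjusted in either arm.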

How the data were processed

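RNA of whole tissue pieces was sequenced from 28 libraries of 14 animals, from poly-A selected mRNA as directional (dUTP) paired-end libraries per the labels' protocols. Per the submitters' processing notes, the tools included featureCounts 1.5.0-p3, StringTie 1.3.3b and HISAT2 2.0.5. The strand setting of the counting, the build and the annotation behind it are each not given in the sources used here. Hence reads of a gene and an antisense neighbour may not be told apart. The authors deposited whole-number counts per gene, not normalised, with a gene length that was used for levels per kb alone.

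From these counts edgeR 4.0.16 (R 4.3.3) fitted 1 quasi-likelihood model over the 6 groups, with TMM scaling (factors 0.678 to 1.22), a filterByExpr minimum of 10, and Benjamini-Hochberg adjustment over 17177 genes at 0.05. That model holds no term for the animal, so its intervals and p-values do not use the pairing of graft and native libraries. DESeq2 1.42.0, RLE scaling, no filter on low counts, the groups of a comparison alone, each library left out, and the animal as a replicate block were alternatives. No library pair was identical (0), and the labels give no batch. Separate animals are replicates. Graft and native libraries come from the same animal per the description codes, and their deviations from the group means correlated at -0.30 to 0.71. The codes also hold F for animals 1 to 3 of the Entero and SIS arms and animals 1 and 2 of the PRS arm, and M for the others. No fit held this letter as a term, so its part in the spread within groups was not tested. Intervals cover 95%, and floors stand for 3 counts over a group. The fit was checked on simulated counts with large changes planted in genes of higher counts alone, so the check does not cover genes as rare as DBX2.

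The 8 genes and the lists were chosen with earlier results of these data known. Beside the 8 genes, the rule named up to 4 called genes per list and the 3 genes of highest Pearson's r over 14 native bladders among 15120 tested with a symbol (6280 of 27533 lack one). The list genes named for an unadjusted p were chosen after their values were seen. The promoter motif count that was planned was not run, since no sequence was used here.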

Additional observations from a re-analysis of the deposited data

Results flagged for a closer look

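In 6 of 42 groups of 4 or 5 libraries, 1 library lay farther from the others on the CPM scale than Dixon's 95% value allows. Chance gives about 1 in 20 for independent groups of normally distributed values. The 42 groups share libraries and CPM was not put on a log scale, so the count is not read as an excess. TBX3 was low in the ileum graft of Entero animal 4, at 52.9 CPM against 138 to 156 CPM in the other 4 grafts. TBX4 was high in the native bladder of the same animal, at 57.1 CPM against 10.4 to 18.9 CPM in the other Entero Native libraries. The graft of SIS animal 1 was high for TBX4, at 33.1 CPM against 0.976 to 5.71 CPM in the other SIS grafts, and for TBX5, at 17.1 CPM against 0 to 4.44 CPM. The graft of PRS animal 2 was high for TBX5, at 39.0 CPM against 0.828 to 6.20 CPM in the other PRS grafts, and for TBX20, at 19.7 CPM against 0 to 1.35 CPM. It was also the PRS graft with the most smooth muscle transcript, whose part in these values was not tested.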

How the results depend on the processing

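Of 735 alternative fold changes of the 8 genes in the comparisons without the ileum, 26 changed sign, 23 of them among 532 with 1 library left out, and 4 passed an adjusted p of 0.05, all of DBX2 in DESeq2. The cause of the changes below was not tested. With the animal as a replicate block, PRS Regen over PRS Native was -1.89 for TBX4, -0.20 for TBX20 and -0.62 for EVX1, the PRS change against the Entero change had 0 called members, and no other count of called members moved by over 1.5 times; the block shifted the median of all genes by up to 0.243 on the log2 scale. The bounds of TBX4, TBX5, TBX20, EVX1 and DBX2 over ileum were also taken on unscaled totals and without the highest library of each group. These alternatives were chosen after seeing the data. With 0 reads in ileum the bounds could hardly fall to 1, so nothing is read from their staying above it. On unscaled totals they rose, and without the highest library they fell. In PRS Regen the bound fell from 185-fold to 24.6-fold for TBX20 and from 399-fold to 92.0-fold for TBX5. In SIS Regen that of TBX4 fell from 312-fold to 110-fold. With the groups of a comparison alone, 2 members were called in PRS Regen over Entero Ileum and 5 in the SIS change against the Entero change. DESeq2 called 5 in the SIS change against the Entero change, and 1 (DBX2) in each of PRS Regen over PRS Native, PRS Native over Entero Native, PRS Native over SIS Native and the PRS change against the SIS change. Over all genes DESeq2 called 69 in SIS Regen over SIS Native, 30 in PRS Regen over PRS Native, 64 in the pooled arms, 18 in PRS Regen over SIS Regen, 68, 35 and 115 between native bladders (SIS over Entero, PRS over Entero, PRS over SIS) and 20 in the PRS change against the SIS change, each 0 in edgeR. Of the changes against the Entero change, DESeq2 called 1767 (SIS) and 1182 (PRS), the block 675 and 240, and edgeR without it 1127 and 600. With the groups alone, edgeR called 2326 in SIS Regen over Entero Ileum, 1040 in PRS Regen over Entero Ileum and 368 in the PRS change, against 3627, 2398 and 600. Without 1 library, counts of called members ran 6 to 7 (Entero Ileum over Entero Native, 7 without Entero Ileum 2), 3 to 5 (PRS change against Entero change, 3 without PRS Regen 2) and 5 to 7 (PRS Regen over Entero Ileum, 5 without Entero Ileum 1, 4 or 5 or PRS Regen 2). Values that changed sign ran, in the pooled arms, -0.21 to 0.0467 for TBX3, -1.35 to 0.0162 for TBX18, -1.72 to 0.17 for TBX20 and -0.15 to 0.56 for EVX1. In the PRS change against the SIS change they ran -0.53 to 2.54 for TBX5 and -1.43 to 0.0124 for EVX1. In PRS Regen over SIS Regen they ran -0.64 to 2.80 for TBX4, -1.07 to 2.01 for TBX5, -0.69 to 3.03 for TBX20 and -1.41 to 0.0316 for EVX1. In PRS Regen over PRS Native they ran -1.85 to 1.05 for TBX4, -2.31 to 0.29 for TBX5, -1.04 to 1.68 for TBX18, -1.39 to 1.93 for TBX20 and -0.87 to 0.57 for EVX1. The r of TBX4 and TBX5 with urothelium was 0.0407 and 0.0701 without the 2 farthest libraries. With 4 or 5 animals a group and few reads of DBX2, TBX18 and TBX20, intervals are wide.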
